A study of Homo sapiens with 17 samples.

Results

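MIR3180-1, MIR1304, MIR576, MIR4664, MIR4326 and MIR3681 are 6 human microRNA hairpins whose small RNAs had low ratios between paired libraries at 13 d and 31 d of a Drosha knockdown experiment. They were chosen by those ratios, from hairpins grouped together as young in primate evolution. The age of a hairpin is not measured by these data. Their members are alignments of 18 to 26 nt that lie in the hairpin's hg19 window, widened by 5 nt on each side, on the hairpin's strand. The windows run from 15005077 to 15005170 on chromosome 16 (plus strand) for MIR3180-1, from 93466840 to 93466930 on chromosome 11 (minus) for MIR1304, and from 110409854 to 110409951 on chromosome 4 (plus) for MIR576. They run from 144815253 to 144815323 on chromosome 8 (minus) for MIR4664, from 61918160 to 61918218 on chromosome 20 (plus) for MIR4326, and from 12339255 to 12339326 on chromosome 2 (plus) for MIR3681. In all, 233 alignments of the windows were listed in at least 1 table. Of these, 41 had a ratio above 0 in all 8 tables, of 11342 such alignments in the whole genome. Grouped by 5′ end, with at least 3 such alignments to a group, the hairpins held 10 of the 1078 groups that were tested.

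The experiment used K562, an established human erythroleukemia line, carrying a short hairpin RNA against Drosha that is switched on by doxycycline (Dox). Cultures had 1 µg/mL Dox, or water in its place, for 3, 13 or 31 d, and every culture carried the Drosha hairpin construct, those kept in water and the untreated one included. There were 2 pairs of Dox and water libraries at 3 d (replicates 1 and 3), 3 at 13 d and 3 at 31 d (replicates 1, 2 and 3 each), and 1 table for each pair. The labels call the replicates independent biological replicates and do not say whether the line is 1 clone. The untreated library was not analysed here. Each table gives, for each alignment, a ratio of 1 library of the pair to the other, but which of the pair is on top of the ratio is stated in no header or label. Values below are log2 ratios of numerator over denominator, where the numerator may be either the Dox or the water library, and it is assumed that all 8 tables run the same way. Drosha messenger RNA is not measured by these tables.

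MicroRNAs are made in steps. Drosha, a nuclease of the nucleus working with its partner DGCR8, cuts the hairpin out of a long primary transcript; Dicer then cuts off the loop and leaves a duplex, of which usually one strand is loaded into an Argonaute protein. The strand from the rising side of the hairpin is called 5p and that from the falling side 3p. The 5′ end of a microRNA is usually cut exactly and places its seed, the stretch that pairs with target messenger RNAs, while the 3′ end varies by trimming and by added bases. Some short hairpins come from introns and are made without Drosha.

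The sequences below show which stretch of the hairpin the measured small RNAs cover and the seeds of the annotated mature forms. Sequences are those of the RefSeq (GRCh38.p14) table used here, in which hairpins of 3 members and mature forms of 4 were matched. In the hairpins, capitals mark the stretches covered by the 5′-end groups tested.
MIR3180-1 hairpin: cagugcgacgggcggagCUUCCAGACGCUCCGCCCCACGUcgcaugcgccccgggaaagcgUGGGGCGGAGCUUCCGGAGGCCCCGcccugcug
MIR576 hairpin: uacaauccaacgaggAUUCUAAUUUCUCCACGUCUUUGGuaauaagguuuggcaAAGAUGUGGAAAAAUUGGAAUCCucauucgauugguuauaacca
MIR3681 hairpin: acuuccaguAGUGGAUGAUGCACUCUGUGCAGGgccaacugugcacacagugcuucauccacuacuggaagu
In the mature forms, capitals mark the seed, bases 2 to 8.
miR-3180-5p: cUUCCAGAcgcuccgccccacgucg
miR-1304-5p: uUUGAGGCuacagugagaugug
miR-576-5p: aUUCUAAUuucuccacgucuuu
miR-576-3p: aAGAUGUGgaaaaauuggaauc
miR-3681-5p: uAGUGGAUgaugcacucugugc
miR-3681-3p: aCACAGUGcuucauccacuacu
No 2 of these seeds were the same. Of 2370 human mature names, miR-128-3p and miR-216a-3p carry the seed of miR-3681-3p, and no other name carries the seed of the remaining 5 mature forms. The measured MIR3681 5p group starts 1 base after the annotated end, and its seed, GUGGAUG, is carried by 1 other name, miR-3691-5p.

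Where a mature form was listed for the arm, the measured 5′ ends fell on or near the annotated ones. The tested groups of MIR3180-1 3p, MIR1304 3p, MIR4326 5p and MIR4664 3p had no listed mature form and could not be compared. The tested groups of MIR3180-1 5p, MIR576 5p and MIR576 3p began exactly at the RefSeq mature 5′ end. MIR1304 5p had 2 tested groups, 1 at the annotated end (hairpin base 20) and 1 that began 3 bases upstream of it (base 17); a small RNA with that 5′ end carries another seed. MIR3681 5p began 1 base downstream of the annotated end, at base 10. The window lengths in hg19 equal the RefSeq gene lengths for all 6 hairpins, which is what allows positions to be counted from the first base of the hairpin; coordinates were not converted between builds. Of the tested groups, 6 lay on the 5p arm and 4 on the 3p arm. MIR3180-1, MIR1304 and MIR576 had tested groups on both arms, MIR4326 and MIR3681 on 5p only, and MIR4664 on 3p only.

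**Figure D1:**
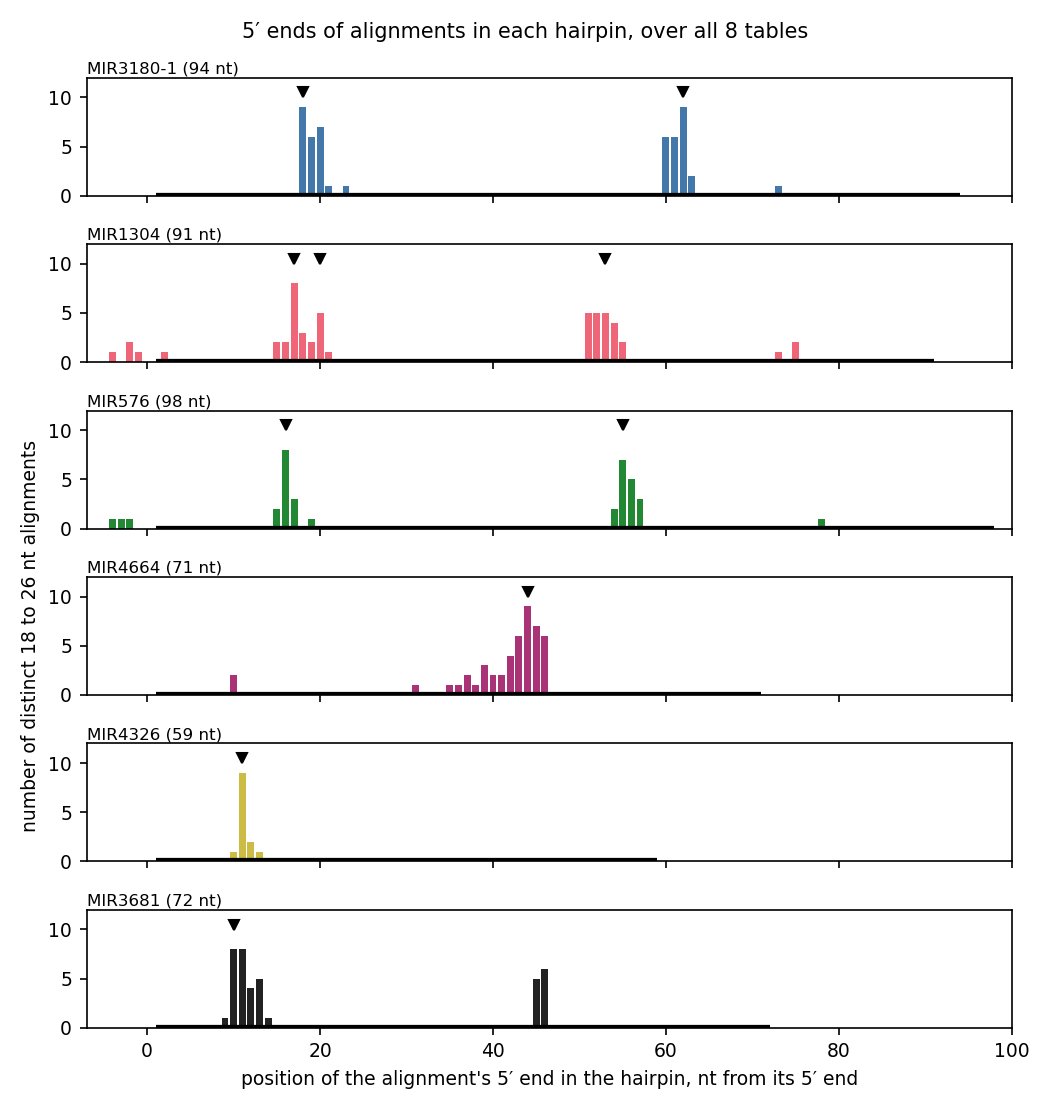
Number of distinct alignments of 18 to 26 nt (vertical axis) by the hairpin base on which their 5′ end lies (horizontal axis, nt), 1 panel per hairpin, over all 8 tables; triangles mark the 5′ ends of the tested groups and the black line the extent of the hairpin. An alignment is a start and end, not a read. MIR4326 has 9 of its 13 alignments on base 11, and MIR4664 has 45 of its 47 on the 3p arm.

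The hairpins differed in how evenly their arms were covered and in how sharply the 5′ ends were set. MIR3180-1 had 24 distinct alignments on 5p and 24 on 3p, MIR1304 28 and 24, and MIR576 17 and 18. MIR3681 had 27 on 5p and 11 on 3p, and MIR4664 had 2 on 5p and 45 on 3p. All 13 alignments of MIR4326 were on 5p. On MIR4326, 9 of 13 (69.2%) shared hairpin base 11; on MIR576 5p, 8 of 17 (47.1%) shared base 16; on MIR3180-1 5p, 9 of 24 (37.5%) shared base 18. On MIR4664 the 3p 5′ ends were spread over bases 31 to 46, with 9 of 45 on base 44. These are counts of distinct alignments, which move with depth, and not of molecules.

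The hairpins lie in different settings. By the GENCODE 29 annotation of GRCh38, MIR576 lies in SEC24B, which encodes a cargo-binding part of the COPII vesicle coat, and MIR4326 in ARFGAP1, which encodes an activator of GTP hydrolysis by ARF1 at the Golgi. MIR4664 lies in FAM83H, a gene mutated in an inherited enamel defect, and MIR3681 in its own host lincRNA, MIR3681HG. These 4 lie on the strand of the host gene and overlap no exon. MIR1304 lies on the strand of TAF1D, a subunit of the RNA polymerase I selectivity factor, and overlaps an exon. MIR3180-1 lies opposite to an exon of the lincRNA AC138932.2. MIR3180-1 has near-identical copies on chromosome 16: the whole RefSeq hairpin of MIR3180-3 is identical to it and MIR3180-2 lies wholly within it. The tested 5p stretch occurs in both of these copies and the tested 3p stretch also in MIR3180-4 and MIR3180-5, so every MIR3180-1 value is uncertain between copies. The tested stretches of MIR576 and MIR3681 occur in 0 other RefSeq hairpins.

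The predicted folds also differed. MIR3681 had a minimum free energy of -53.1 kcal/mol over 72 nt with 86.1% of its bases paired, and 3.27% of 1560 RefSeq hairpins were more stable per nt. MIR3180-1 had -61 kcal/mol over 94 nt with 72.3% paired and a GC content of 75.5%, and 9.10% of hairpins were more stable per nt. MIR576 had -46.5 kcal/mol over 98 nt with 73.5% paired and a GC content of 36.7%, and 42.5% were more stable per nt. The median hairpin had 71.6% of bases paired and a GC content of 52.1%. The 3 folds thus lay at different places in the distribution.

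The ratios of the 6 hairpins were low at both later times and scattered around the median of all groups at 3 d. Values below are, for each table, the median log2 ratio over those alignments of a hairpin that had a ratio above 0 in all 8 tables, listed as 3 d replicates 1 and 3, then 13 d and 31 d replicates 1, 2 and 3. The low values at 13 d and 31 d chose the hairpins, so they are a description, and limma results given further on for these days are no independent support. Whole tables also moved: the median of the 1078 groups was 0.70 and 1.67 at 3 d, with 0.53, -0.23 and -1.24 at 13 d and with -0.11, -1.26 and -0.72 at 31 d. Distances from these medians are therefore given beside the values. The alignments behind a value are few: 11 of 52 for MIR1304, 9 of 48 for MIR3180-1, 7 of 35 for MIR576, 6 of 47 for MIR4664, 4 of 38 for MIR3681 and 4 of 13 for MIR4326.

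MIR3681, whose stem had the highest share of paired bases among the 3 folded, had log2 ratios of 0.58 and 1.66 at 3 d, with -5.00, -5.18 and -5.94 at 13 d and with -3.50, -4.55 and -4.003 at 31 d. The 3 tables at 13 d all lay below the 3 at 31 d. Its means were 1.12 ± 0.76 at 3 d (SD, n = 2), -5.37 ± 0.50 at 13 d and -4.02 ± 0.53 at 31 d (SD, n = 3 each), so that the numerator was 41.5-fold lower than the denominator at 13 d and 16.2-fold lower at 31 d. Relative to the table medians these means were -0.071, -5.06 and -3.32.

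MIR4664 is a hairpin in an intron of FAM83H, measured through its 3p arm. It had log2 ratios of 2.34 and 1.91 at 3 d, with -4.21, -6.17 and -4.73 at 13 d and with -4.46, -7.28 and -5.07 at 31 d. All 3 tables at 31 d lay within or below the range at 13 d, and replicate 2 was the lowest on both days. The means were 2.13 ± 0.30 at 3 d (SD, n = 2), -5.04 ± 1.01 at 13 d and -5.60 ± 1.48 at 31 d (SD, n = 3 each), that is 32.8-fold and 48.5-fold lower in the numerator at 13 d and 31 d. Over all its alignments with a ratio above 0 in the table at hand they were -4.07 at 13 d and -4.90 at 31 d, 16.8-fold and 29.8-fold lower, and without 31 d replicate 2 the 31 d mean was -4.76. Relative to the table medians they were 0.94, -4.72 and -4.91.

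MIR4326, the shortest of the 6 hairpins and intronic in ARFGAP1, had log2 ratios of -0.17 and 1.03 at 3 d, with -4.73, -4.57 and -6.16 at 13 d and with -3.99, -6.67 and -4.78 at 31 d. Its later tables overlapped between the days, and its 3 d tables lay on both sides of 0. The means were 0.43 ± 0.85 at 3 d (SD, n = 2), -5.15 ± 0.87 at 13 d and -5.15 ± 1.37 at 31 d (SD, n = 3 each), 35.5-fold and 35.4-fold lower in the numerator at 13 d and 31 d. Without 31 d replicate 2 the 31 d mean was -4.39, and over all alignments with a ratio above 0 in the table at hand the 3 d mean was 1.06. Relative to the table medians they were -0.76, -4.84 and -4.45; the 3 d mean is thus above 0 as deposited and below 0 once the tables are centred.

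MIR3180-1, with the caveat on its copies, had log2 ratios of 1.08 and 2.2 at 3 d, with -4.47, -4.29 and -4.47 at 13 d and with -3.51, -3.97 and -4.04 at 31 d. Its spread between pairs was the smallest of the 6 at both later times, and every table at 13 d was below every table at 31 d. The means were 1.64 ± 0.79 at 3 d (SD, n = 2), -4.41 ± 0.10 at 13 d and -3.84 ± 0.29 at 31 d (SD, n = 3 each), 21.3-fold and 14.3-fold lower in the numerator at 13 d and 31 d. Relative to the table medians they were 0.45, -4.09 and -3.15.

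MIR576, from an intron of SEC24B, gives rise to miR-576-3p, which has been described in human cells as a regulator of antiviral interferon signalling. The hairpin had log2 ratios of 0.81 and 1.77 at 3 d, with -2.98, -2.74 and -4.50 at 13 d and with -2.70, -4.82 and -3.09 at 31 d. Its later tables overlapped, with replicate 3 the lowest at 13 d and replicate 2 the lowest at 31 d. The means were 1.29 ± 0.68 at 3 d (SD, n = 2), -3.41 ± 0.95 at 13 d and -3.54 ± 1.13 at 31 d (SD, n = 3 each), 10.6-fold and 11.6-fold lower in the numerator at 13 d and 31 d. The 31 d mean was -2.83 over all alignments with a ratio above 0 in the table at hand, and -2.90 without 31 d replicate 2. Relative to the table medians they were 0.10, -3.09 and -2.84.

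MIR1304, which overlaps an exon of TAF1D, lay nearest to 0 at both later times. It had log2 ratios of 1.01 and 1.89 at 3 d, with -2.24, -2.52 and -1.94 at 13 d and with -2.26, -3.83 and -3.18 at 31 d. The means were 1.45 ± 0.62 at 3 d (SD, n = 2), -2.23 ± 0.29 at 13 d and -3.09 ± 0.79 at 31 d (SD, n = 3 each), 4.70-fold and 8.51-fold lower in the numerator at 13 d and 31 d. Relative to the table medians they were 0.26, -1.92 and -2.39.

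**Figure D2:**
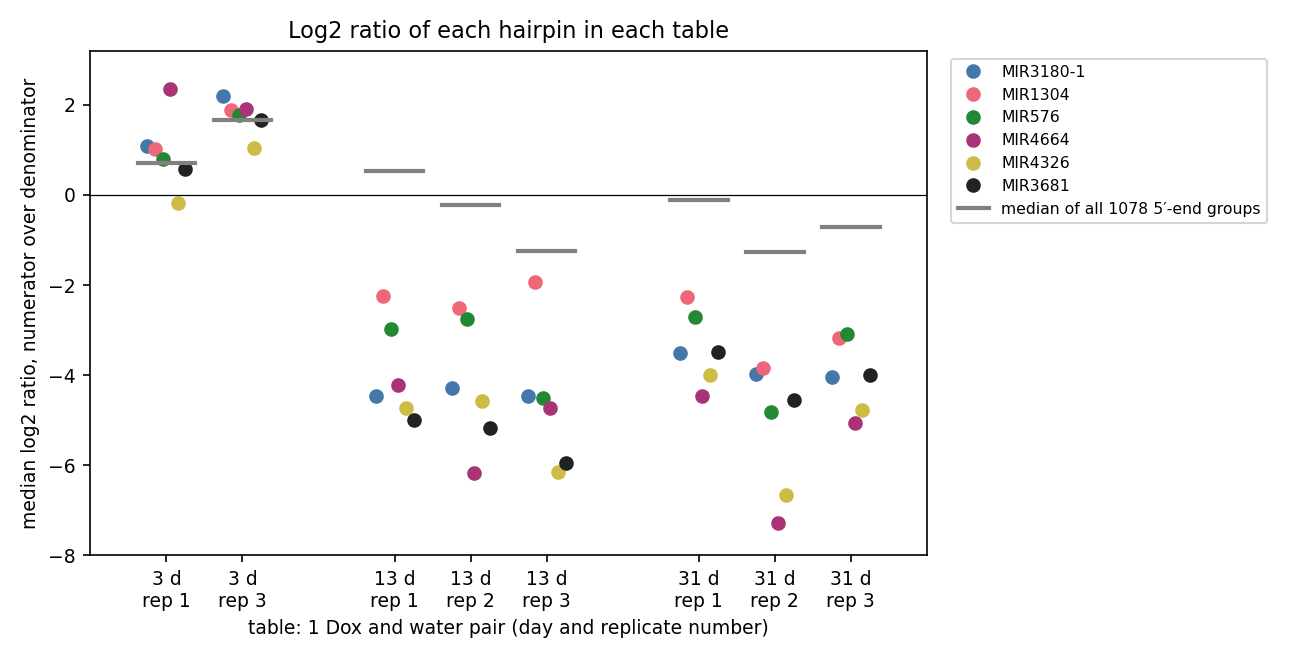
Median log2 ratio, numerator over denominator, of each hairpin (points) in each of the 8 tables, with the median of all 1078 5′-end groups in that table as a grey bar. All 6 hairpins lie below the bar in every table at 13 d and 31 d, while at 3 d they scatter around it.

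From low to high, the order at 13 d was MIR3681, MIR4326, MIR4664, MIR3180-1, MIR576 and MIR1304, and at 31 d MIR4664, MIR4326, MIR3681, MIR3180-1, MIR576 and MIR1304. Each pair of neighbours in these orders overlapped in its range over tables, except MIR576 and MIR1304 at 13 d, where every table of MIR1304 lay above every table of MIR576. The order was not tested.

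Among all groups, most of the member groups lay in the low tail on the later days, and the members lay around the middle at 3 d. The 10 member groups had a median of 1.42 at 3 d, of -4.07 at 13 d and -3.73 at 31 d, beside 1.20, -0.20 and -0.71 over all 1078 groups. At 13 d and again at 31 d, 6 of the 10 member groups lay below the 5th percentile of all groups, which was -3.53 and -3.50; at 3 d 0 of 10 lay below it (-2.02). The MIR3681 5p group was the lowest of all 1078 groups at 13 d, at -5.75, and the MIR4664 3p group the lowest at 31 d, at -5.58. MIR4326 5p was among the lowest 4 groups on both days. The member groups not below the 5th percentile were those of MIR1304 and MIR576 5p, on both days. At 13 d 233 groups lay lower than MIR1304 3p, and at 31 d 113 lay lower than MIR1304 5p from base 20. With limma and Benjamini-Hochberg adjustment at 0.05, 10 of 10 member groups were called lower at 13 d and 10 of 10 at 31 d, beside 29% and 27.7% of all groups. Since low ratios on those days chose the members, nothing is read from these counts.

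**Figure D3:**
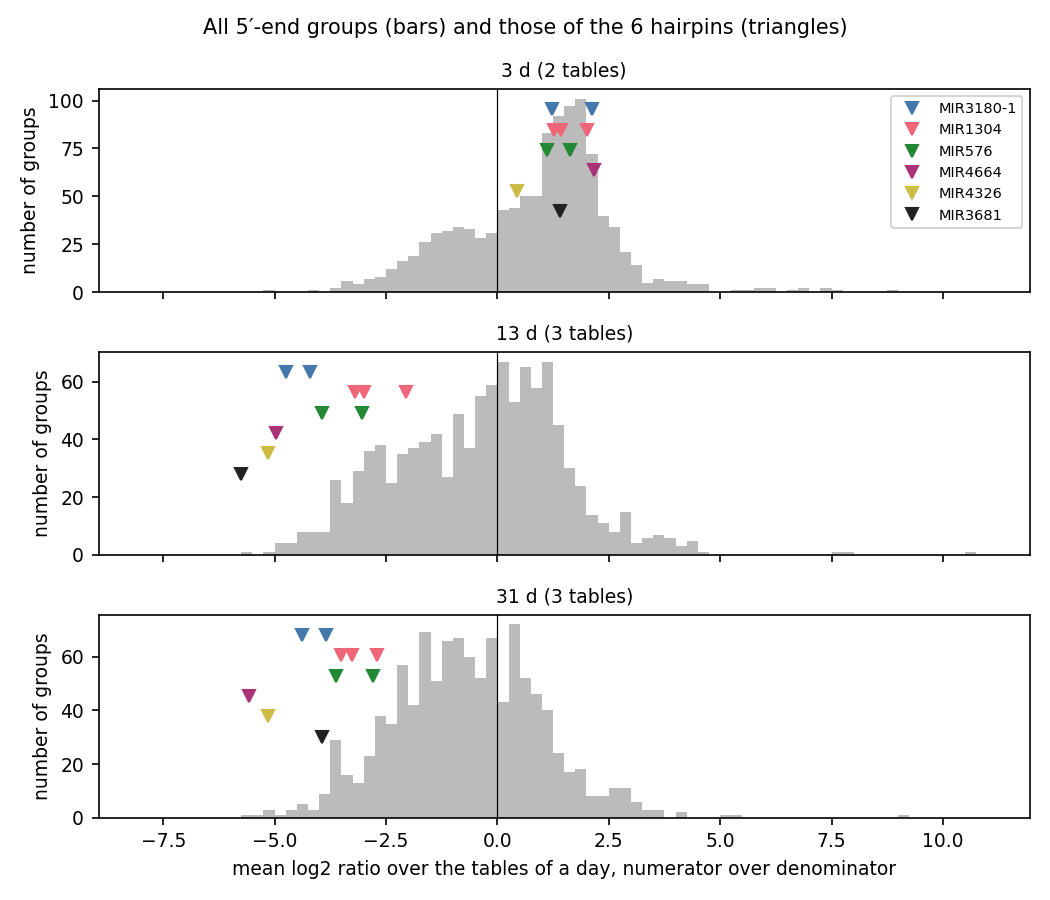
Distribution of the mean log2 ratio of the 1078 5′-end groups on each day, as grey bars (vertical axis, number of groups), with the 10 member groups as triangles, whose height only separates the hairpins. The member groups lie between 0.43 and 2.18 at 3 d, between -5.75 and -2.06 at 13 d, and between -5.58 and -2.71 at 31 d.

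Whether the 3 d ratios entered the choice of the members is not known, so limma's results at 3 d are given as a description too. By limma with Benjamini-Hochberg adjustment over all groups, 3 of 10 member groups had a higher ratio at 3 d, beside 22.5% of all groups, and 0 of 10 a lower one, beside 3.8% of all groups. No member group had a lower ratio at an unadjusted p of 0.05 either. The 3 were MIR3180-1 5p (2.13, 95% interval 0.71 to 3.54, adjusted p = 0.0313), MIR1304 5p from base 20 (2.02, interval 0.51 to 3.52, adjusted p = 0.0469) and MIR4664 3p (2.18, interval 0.54 to 3.81, adjusted p = 0.0473). Each was above 0 in 2 of 2 tables. The other 7 had values between 0.43 (MIR4326 5p, interval -1.15 to 2.01) and 1.63 (MIR576 5p, interval 0.12 to 3.14, adjusted p = 0.0852). The 3 calls do not hold once each table is centred on its median, with 0 of 10 called, nor without 3 d replicate 3 or without 31 d replicate 3, each with 0 of 10 called. Centring also turned the split of all groups at 3 d, to 60 higher and 211 lower, against 243 higher and 41 lower as deposited.

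The differences of both later days from 3 d use the low values that chose the members. For 13 d minus 3 d and for 31 d minus 3 d, 10 of 10 member groups were called lower by limma, beside 37% and 37.4% of all groups, and nothing is read from the counts. The differences at 13 d minus 3 d ran from -7.15 (MIR3681 5p and MIR4664 3p) to -3.32 (MIR1304 3p), and at 31 d minus 3 d from -7.76 (MIR4664 3p) to -4.43 (MIR576 5p). The weakest, MIR1304 3p, was -1.82 at 13 d minus 3 d after centring (adjusted p = 0.0765) and -2.72 without 3 d replicate 3 (adjusted p = 0.0630). At 13 d itself it was -2.00 without 13 d replicate 2 (adjusted p = 0.05002, against a threshold of 0.05).

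The later days were also compared with each other, and no group was called. For 31 d minus 13 d, 0 of 1078 groups (0%) and 0 of 10 member groups passed limma's adjusted threshold, while 116 groups and 1 member group had an unadjusted p under 0.05. That member was MIR3681 5p, with 1.82 ± 0.81 (SE; 95% interval 0.13 to 3.50; unadjusted p = 0.0362, adjusted p = 0.456), higher at 31 d in 3 of 3 tables than in any table at 13 d. MIR1304 3p had the lowest difference, -1.44 ± 0.80 (SE; interval -3.11 to 0.23; adjusted p = 0.497). MIR4326 5p had 0.0040 ± 0.87 (SE; interval -1.82 to 1.83). The interval of MIR4326 5p leaves room for differences of several-fold in either direction, while those of MIR3681 5p and MIR1304 3p lie mostly or wholly on one side of 0. These values come from tables that chose the members, and an adjusted p that misses the threshold does not show that the days are alike.

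MIR3180-1, MIR1304 and MIR576 had alignments with a ratio above 0 in all 8 tables on both arms. The medians of both arms lay below 0 in every table at 13 d and 31 d. Low ratios on those days chose the hairpins, so this is a description. MIR576 had a higher log2 ratio on 5p than on 3p in 8 of 8 tables, by 1.00 ± 0.60 on average (SD, n = 8 tables), between 0.28 and 1.88. MIR3180-1 had a 5p minus 3p difference of 0.22 ± 0.82 (SD, n = 8 tables), above 0 in 5 of 8. MIR1304 had -0.34 ± 1.30 (SD, n = 8 tables), above 0 in 5 of 8, with its extreme of -3.25 in 13 d replicate 3. No test was made of these differences.

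Within MIR1304 3p, 1 alignment stood apart from its neighbours. The 21 nt alignment from 93466860 to 93466880, whose 5′ end lies at base 51, had ratios in the authors' deposited tables of 2.46 and 1.69 at 3 d, with 1.30, 1.87 and 0.596 at 13 d and with 0.687, 0.534 and 1.15 at 31 d. The tested group 2 bases further in, from base 53, had log2 ratios of 0.66 and 1.87 at 3 d, with -2.64, -2.19 and -1.35 at 13 d and with -2.81, -4.04 and -3.66 at 31 d. On the same log2 scale the base 51 alignment had day means of 1.03, 0.18 and -0.41. It is a single alignment, so it did not enter the main fit. It entered only the fits with no minimum of alignments and on single alignments. It was picked out after its values were seen.

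Longer forms of a shared 5′ end tended to have the lower ratio at the later times in some groups. In MIR4326 5p, the 25 nt alignment was lower than the 21 nt one in 6 of 6 later tables, by -3.60 on average on the log2 scale. In the authors' deposited tables the 25 nt form had ratios of 0.0110, 0.0286 and 0.00210 at 13 d and the 21 nt form 0.561, 0.139 and 0.165, while at 3 d they had 1.01 and 2.49 for the 25 nt form and 0.666 and 1.30 for the 21 nt form. In MIR576 3p the 23 nt form was lower than the 21 nt form in 6 of 6, by -2.36, and in MIR1304 5p from base 17 the 23 nt form was lower than the 21 nt form in 6 of 6, by -1.97. In both groups the 23 nt form was also the lower at 3 d in 2 of 2 tables, by -0.93 on average in MIR576 3p and by -0.19 in MIR1304 5p from base 17. The longest form was lower in 6 of 6 later tables in 3 of 10 member groups (30%) and in 162 of 1078 groups (15.0%), with a median difference of -0.81 in members and -0.59 over all groups. At 3 d the median difference was 0.80 in members and 0.09 over all groups. These are descriptions, since ratios of the same alignments chose the members.

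**Figure D4:**
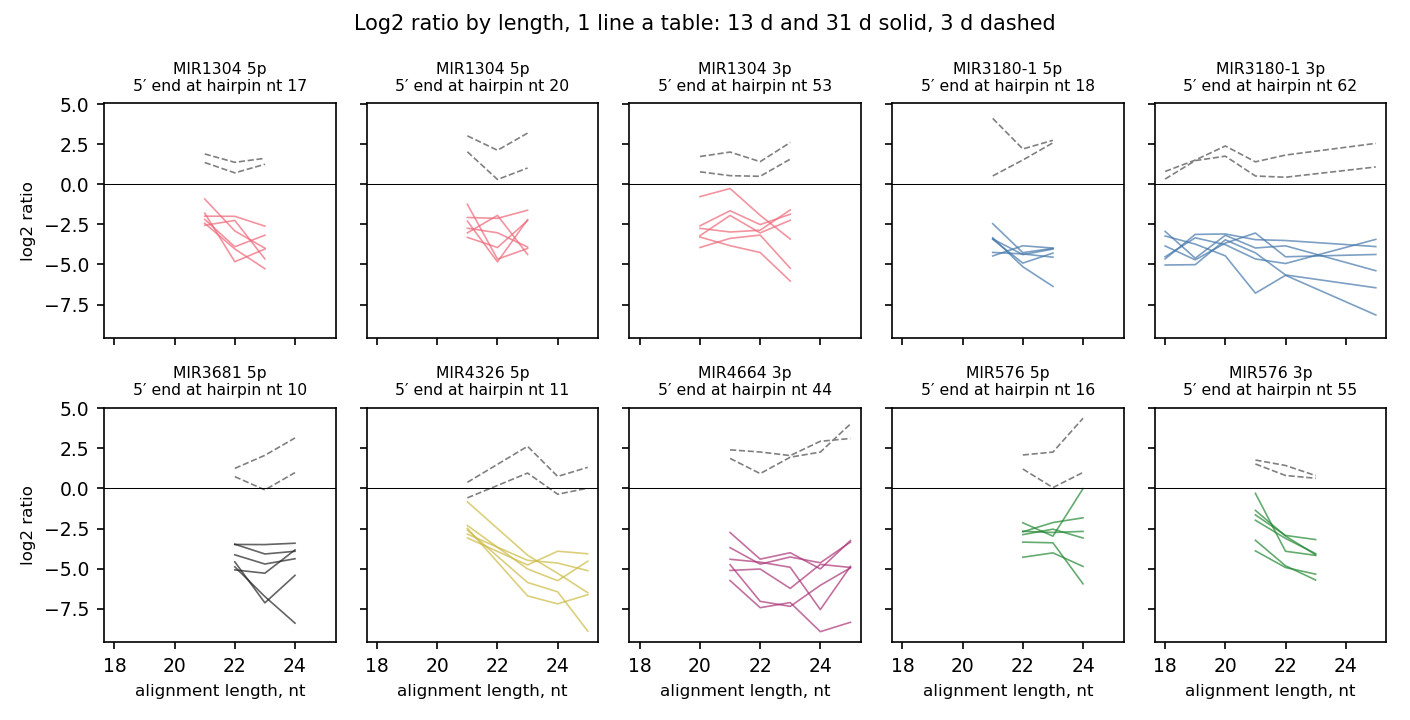
Log2 ratio, numerator over denominator (vertical axis), by alignment length in nt (horizontal axis) for the 10 tested groups of the hairpins, 1 line per table, with 13 d and 31 d tables solid and 3 d tables dashed. In MIR4326 5p the 25 nt form differs from the 21 nt form by -3.60 on average over the 6 later tables. In MIR4664 3p the same difference is -0.53. Its 24 nt form, however, lies below its 21 nt form in every later table except 31 d replicate 3.

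A listed alignment is taken here to be one for which the denominator had reads, and a ratio of 0 to mean that the numerator had none. This reading was not checked against the per-library value columns. At 3 d 20.2 to 21.9% of the member alignments listed in a table had a ratio of 0, beside 86.5 to 94.0% of all alignments of 18 to 26 nt. At 13 d and 31 d the range was 46.0 to 52.3% for members and 79.7 to 87.1% for all. The share at 0 of the members was thus higher in every later table than in either 3 d table. Low ratios at 13 d and 31 d chose the members, so this too is a description. The log2 values above leave out every alignment with a ratio of 0, or not listed, in any of the 8 tables, and so describe 41 of the 233 alignments of the hairpins. Of MIR3681 3p, the arm with the seed of miR-128-3p, 25 of 26 listings at 13 d and 31 d had a ratio of 0 and 1 of 2 at 3 d, and no alignment of that arm had a ratio above 0 in all 8 tables. MIR4664 5p had 4 of 5 later listings at 0 and 1 of 2 at 3 d.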

How the data were processed

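Small RNA of 8 Dox and 8 water cultures was compared in 8 tables, 1 for each pair. Bowtie2 2.2.9 and the build hg19 (GRCh37) are named in the submitters' processing notes. Libraries were size-selected to 20 to 40 nt, per the labels' protocols. The value used is the ratio the authors deposited for each alignment. The sources used here do not give the placement of reads that match several positions. No library is named for the 4 further value columns per table (32 in total), which enter no result. Depth per library is therefore not given, and neither are counting intervals.

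Alignments of 18 to 26 nt with a ratio above 0 in all 8 tables were grouped by chromosome, strand and 5′ end, at least 3 to a group. The log2 of the deposited ratio was summarised as a median per group and table. Limma 3.58.1 in R 4.3.3 fitted 1 mean per day (robust empirical Bayes, two-sided, Benjamini-Hochberg over 1078 groups, threshold 0.05); groups can overlap and are not independent. Folds used ViennaRNA 2.7.2 on RefSeq hairpins; other steps used Python 3.11.15. The text names all 6 hairpins by arm, the groups with most alignments, and the 5 groups outside the windows with the smallest root mean square difference from the mean member profile. The members and lists were chosen with earlier results of these data known. Alternatives were centring, a replicate block, each day alone, other lengths, filters, windows and summaries, and leaving out each table. MicroRNA arms are 5p or 3p by position in the hairpin.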

Additional observations from a re-analysis of the deposited data

Results flagged for a closer look

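All 10 member groups were called lower in limma at 13 d minus 3 d and at 31 d minus 3 d. The shares of all groups called lower were 37% and 37.4%. After centring, 9 of 10 member groups were still called at 13 d minus 3 d, and 10 of 10 at 31 d minus 3 d. For 31 d minus 13 d, 0 of 10 were called. The members were chosen for low ratios at 13 d and 31 d. The differences from 3 d are thus no independent support for a change, and no cause was tested. At 13 d minus 3 d the log2 differences of the 5p groups were -7.15 for MIR3681, -6.33 for MIR3180-1, -5.58 for MIR4326, -5.22 for MIR1304 from base 20, -4.67 for MIR576 and -4.42 for MIR1304 from base 17. Those of the 3p groups were -7.15 for MIR4664, -5.97 for MIR3180-1, -5.06 for MIR576 and -3.32 for MIR1304. At 31 d minus 3 d the 5p groups had -6.52 for MIR3180-1, -5.58 for MIR4326, -5.33 for MIR3681, -4.73 for MIR1304 from base 20, -4.69 for MIR1304 from base 17 and -4.43 for MIR576. The 3p groups had -7.76 for MIR4664, -5.08 for MIR3180-1, -4.77 for MIR1304 and -4.74 for MIR576. The medians of all groups also moved, to -0.20 at 13 d and -0.71 at 31 d, against 1.20 at 3 d.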

How the results depend on the processing

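Counts over all groups moved with the number of features and with single tables. At 3 d 284 groups were called, 77 with each day alone, 143 from that day's tables, 2047 with no minimum of alignments and 2810 as single alignments, and 43 to 377 when 1 table was left out (43 without 3 d replicate 3, 181 without 31 d replicate 3). At 13 d 447 were called, 2195 with no minimum, 3638 as single alignments, and 323 to 469 with 1 table left out. At 31 d 388 were called, 1375 with no minimum, 2450 as single alignments, 727 from that day's tables, and 217 to 458 with 1 table left out (217 without 31 d replicate 2, 241 without 31 d replicate 3). For 13 d minus 3 d 457 were called, 2208 with no minimum, 3659 as single alignments, and 277 to 459 with 1 table left out (277 without 3 d replicate 3). For 31 d minus 3 d 466 were called, 2607 with no minimum, 4116 as single alignments, and 284 to 530 with 1 table left out (284 without 3 d replicate 3). More features are tested in the fits with no minimum and on single alignments; the cause of the other shifts was not tested. For 31 d minus 13 d 0 were called in every fit run. Without a 3 d table, the lone 3 d table is assumed to vary like those of the other days. The 3 members called at 3 d fell to 0 with each day alone and with that day's tables.

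Centring moved the splits to 234 higher and 312 lower at 13 d (134 and 313 as deposited), 220 and 233 at 31 d (89 and 299), 310 and 286 at 13 d minus 3 d (58 and 399), and 248 and 208 at 31 d minus 3 d (63 and 403). Members still called lower after centring were 10 of 10 at 13 d, at 31 d and at 31 d minus 3 d, and 9 of 10 at 13 d minus 3 d.

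With the replicate number as a block, 191 groups were called at 3 d, 446 at 13 d, 430 at 31 d, 443 at 13 d minus 3 d, 439 at 31 d minus 3 d and 0 at 31 d minus 13 d; 0 of 10 members were called at 3 d and 10 of 10 in the 4 other called contrasts. Deviations of same-numbered tables correlated at 0.31, 0.28 and 0.50 among the replicate 1 tables, at -0.015 for replicate 2, and at 0.12, -0.16 and -0.022 for replicate 3. Of these 7 pairs, 3 lay below 0, and not every table correlated best with its own number. With only 2 tables at 3 d, the deviations of 1 mirror those of the other, so the pairs are not separate. The correlations therefore cannot settle whether the numbers link the tables of different days. The main fit did not link them.

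Of the members, 3 d values turned below 0 after centring for MIR4326 (-0.76), MIR3681 (-0.071) and the MIR576 3p group (-0.069), and for MIR4326 without 3 d replicate 3 (-0.17, against 1.03 without 3 d replicate 1). Of the alternatives run for single member groups, 757 kept direction and side of the threshold, 28 lost the call and 3 turned sign. These pooled counts do not measure robustness. Leaving out a table of a day outside the contrast, or fitting each day alone, cannot change a group's estimate, so only the call could move. Calls on the later days, and on their differences from 3 d, rest on the low values that chose the members. Most of the lost calls were at 3 d, among the groups called there.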

Other observations

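Outside the hairpin windows, the 5 groups with the profile nearest to the mean of the member groups over the 8 tables all lay within a stretch of chromosome 20 (plus strand, hg19), with 5′ ends at 62551099, 62550848, 62550904, 62551155 and 62551211. Their root mean square differences from that mean were 0.31, 0.35, 0.39, 0.42 and 0.42 on the log2 scale. The member groups themselves were 0.47 to 1.48 away. The 5 groups were picked for the smallest such difference, so their distances cannot be weighed against those of the members. Each had 4 alignments. The placement of reads that match several positions is not given, so the 5 groups may share reads and need not be separate observations. Whether they do was not tested. The nearest had log2 ratios of 1.005 and 2.04 at 3 d, with -2.87, -3.78 and -4.36 at 13 d and with -3.05, -4.50 and -3.43 at 31 d. No test was made of the likeness.

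Other fragments of the windows were few. Of MIR3180-1 fragments shorter than 18 nt, 34 of 43 listings at 13 d and 31 d had a ratio of 0, with a median log2 ratio of -4.19 in the rest, and 2 of 9 at 3 d, with a median of -0.24. Of MIR4664 fragments shorter than 18 nt, 33 of 38 later listings had a ratio of 0, with a median of -0.47 in the rest, and 6 of 13 at 3 d, with a median of -0.90. On the strand opposite to MIR1304, 22 of 24 later listings had a ratio of 0, with a median of 0.34 in the rest, and 2 of 2 at 3 d.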
